A study of Rattus norvegicus with 4 samples.

Results

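The GDNF family comprises 4 secreted ligands, their 4 GPI-anchored co-receptors and the receptor tyrosine kinase Ret, 9 genes in all among the 35665 genes and unnamed transcripts on the array. Members were taken by gene name, as every non-control probe of the array that carried the name of one of these genes or an older symbol of it. This gave 15 probes, printed as 24 spots, of the 41012 probes on the array. Another 1 carried the name Psp, which the reference table also lists as an older symbol of Pspn. Its transcript was that of the parotid secretory protein, so it was left out.

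Each ligand of this family binds its own preferred co-receptor of the GFRalpha group, and the pair then activates Ret on the same cell. Gdnf acts chiefly through Gfra1, Nrtn (neurturin) through Gfra2, Artn (artemin) through Gfra3 and Pspn (persephin) through Gfra4. In the testis, Gdnf comes from Sertoli cells and from peritubular myoid cells, the contractile cells around the seminiferous tubule. It maintains spermatogonial stem cells, which carry Gfra1 and Ret. In mouse peritubular cells, testosterone has been reported to raise Gdnf.

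RNA came from rat peritubular myoid cells, taken from testes of males aged 40 days and held 4 days in DMEM/Ham F-12 with defined growth factors. The first group, testosterone, comprised 2 samples of cells given pulses of 1e-07 M testosterone, and the second, control, 2 samples of cells labelled as controls. Each sample was hybridised to 1 one-colour array. The control samples carry the same treatment text and were grouped by title and source. The vehicle, the length of treatment, the strain and the origin of each replicate are not given in the sources used here. Every p-value below therefore rests on array-to-array spread, which could be purely technical.

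The arrays shared 1 slide and 1 scan. Between 63.5% and 68.2% of non-control spots were well above background. Replicated spots had a median coefficient of variation, per the file headers, of 5.48% and 5.53% with testosterone, and of 9.52% and 5.25% in control. On control replicate 1, 115 spots read at least 3 log2 units below each of the other arrays, where they were well above background, and all 115 lay in columns 57 to 85 of the array. None of them belonged to a GDNF family probe. A relative level below is the log2 processed signal of a probe less the 75th percentile of its array. It compares a probe between arrays and not one probe with another.

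A probe well above background was found for all 4 ligands, for 3 of the 4 co-receptors and for Ret, but none for Gfra1. Of the 15 probes, 11 were well above background on all 4 arrays and 4 on no array, where 59.8% and 29.1% of all probes on the array did so. No family probe was saturated. The probes without detection were both Gfra1 probes, the second Gdnf probe and the second Gfra3 probe.

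**Figure D1:**
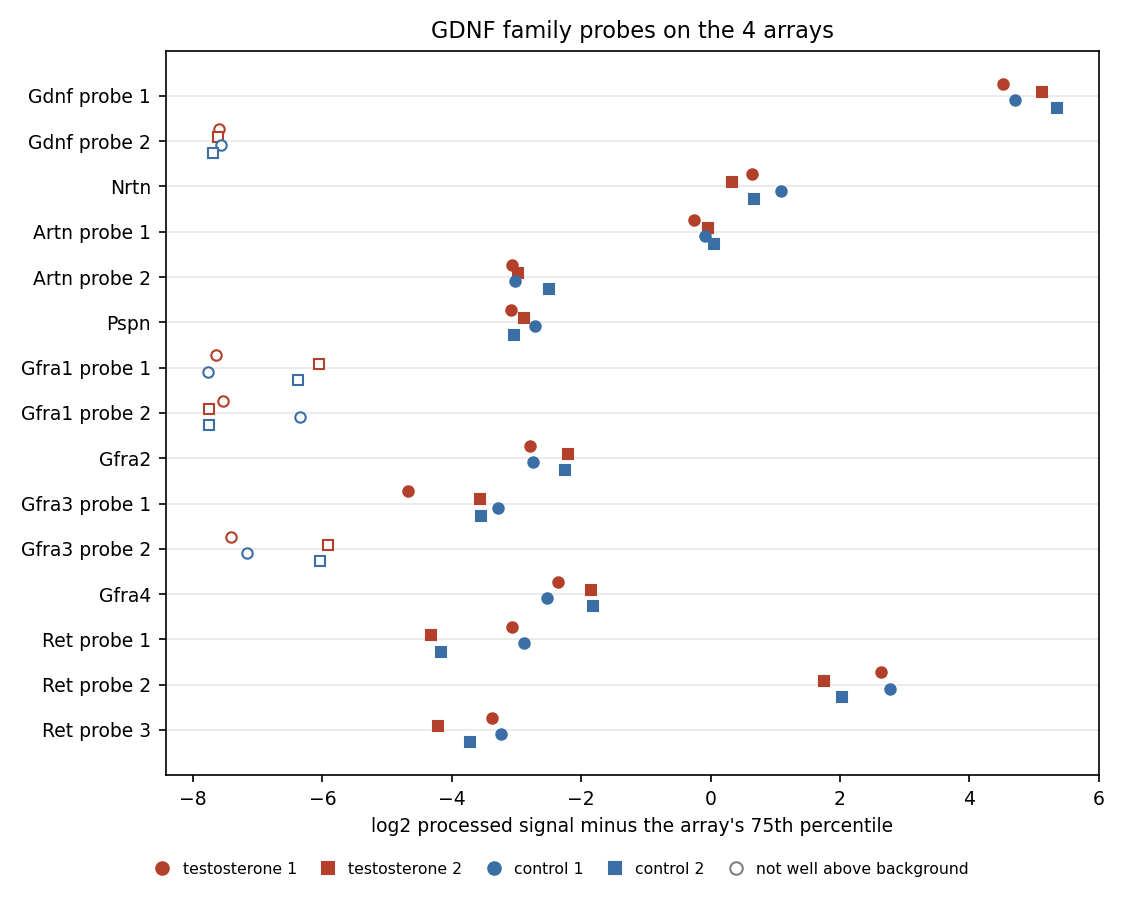
Relative level (log2, relative to the 75th percentile of the array) of the 15 GDNF family probes on the testosterone arrays (red) and the control arrays (blue), with circles for replicate 1 and squares for replicate 2. Open symbols mark values not well above background, which fill the rows of both Gfra1 probes and the second probes of Gdnf and Gfra3.

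Gdnf, the growth factor of spermatogonial stem cells, gave a bright signal at its first probe and no signal well above background at its second. The first probe (chromosome 2, 57403890 to 57403949, rn4, plus strand) had processed signals of 10641 and 12323 with testosterone, against 10899 and 16223 in control. Its relative levels were 4.53 and 5.12 with testosterone and 4.70 and 5.35 in control. The control replicate 2 array was the highest of the 4, and the groups overlapped. The second probe (chromosome 2, 57423845 to 57423904, rn4, plus strand) was printed at 10 places per array, and 0 of its 40 spots were well above background. Their processed signals ran from 1.53 to 9.12 with a median of 2.11. Both probes are assigned to the same transcript, NM_019139, and start 19955 bases apart. On the plus strand the second probe lies downstream of the first, and the RNA was reverse transcribed from oligo-dT. Which exons of Gdnf the probes lie in was not analysed here. Whether the bright signal stands for Gdnf mRNA, and for which of its transcripts, was not tested.

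**Figure D2:**
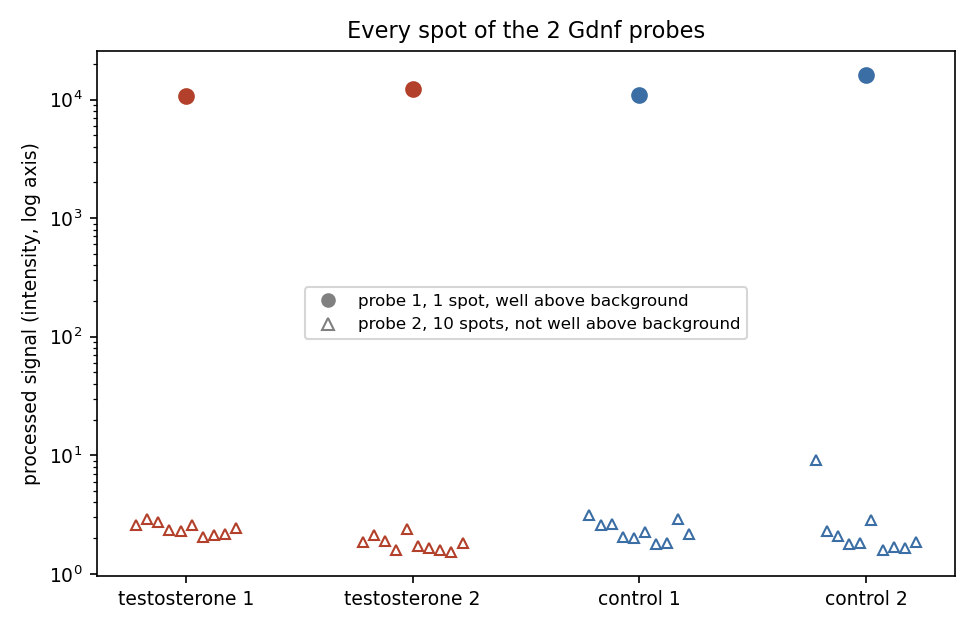
Processed signal (intensity, log axis) of every spot of both Gdnf probes on the testosterone arrays (red) and control arrays (blue). The first probe (circles, 1 spot per array) lies between 10641 and 16223 on all 4 arrays, and the second (open triangles, 10 spots per array) between 1.53 and 9.12, not well above background anywhere.

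The mean relative level of the bright Gdnf probe was 4.82 ± 0.42 with testosterone and 5.03 ± 0.46 in control (SD, n = 2 each). The difference was -0.20 on the log2 scale, a 0.869-fold level, with a 95% interval from -1.13 to 0.73 (limma, adjusted p = 1.00). Between arrays of the same replicate number it was -0.18 for number 1 and -0.23 for number 2. The scanner software put the error of each of these 4 spots at 10% of its signal. Gdnf was thus a little lower with testosterone within both numbers, by less than the spread between the replicates of either group. Leaving out 1 array unbalances the numbers and turned the direction, to 0.10 without testosterone replicate 1 and 0.12 without control replicate 2. In RNA from whole cultures, a change in the number of cells that carry a transcript and a change per cell cannot be told apart.

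The stretches upstream of 4 family genes are shown. Gdnf is the ligand best known in the testis, Nrtn and Ret were chosen after their values were seen, and Gfra4 was the one gene of the 8 with a match to an androgen response motif. The sequences are the 250 bases before the gene start in the RefSeq table for GRCr8, which held 8 of the 9 genes, all but Gfra2. Capitals mark matches on either strand to the androgen response motif (letters AGAACA), the cAMP response motif (letters TGACG), the GC box (letters GGGCGG) or the TATA box (letters TATAAA). None of the matches in these 4 stretches overlap. The stretches are chr2:58621077-58621326 (plus strand) for Gdnf, chr9:1670229-1670478 (minus strand) for Nrtn, chr4:153040557-153040806 (minus strand) for Ret and chr3:138710957-138711206 (minus strand) for Gfra4.
Gdnf: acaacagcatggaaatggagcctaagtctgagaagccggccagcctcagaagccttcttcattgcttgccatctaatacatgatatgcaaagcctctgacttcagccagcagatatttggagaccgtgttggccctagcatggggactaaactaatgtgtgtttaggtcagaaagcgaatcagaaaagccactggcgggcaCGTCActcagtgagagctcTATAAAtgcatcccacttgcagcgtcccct
Nrtn: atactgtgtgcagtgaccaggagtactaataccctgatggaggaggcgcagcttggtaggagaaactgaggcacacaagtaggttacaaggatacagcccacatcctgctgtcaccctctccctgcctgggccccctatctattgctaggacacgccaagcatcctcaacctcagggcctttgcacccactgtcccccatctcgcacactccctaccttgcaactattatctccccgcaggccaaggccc
Ret: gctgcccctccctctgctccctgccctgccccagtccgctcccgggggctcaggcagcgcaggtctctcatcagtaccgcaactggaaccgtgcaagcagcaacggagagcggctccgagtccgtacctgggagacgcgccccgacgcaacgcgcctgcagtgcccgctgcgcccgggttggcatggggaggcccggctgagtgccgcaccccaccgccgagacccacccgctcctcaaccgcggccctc
Gfra4: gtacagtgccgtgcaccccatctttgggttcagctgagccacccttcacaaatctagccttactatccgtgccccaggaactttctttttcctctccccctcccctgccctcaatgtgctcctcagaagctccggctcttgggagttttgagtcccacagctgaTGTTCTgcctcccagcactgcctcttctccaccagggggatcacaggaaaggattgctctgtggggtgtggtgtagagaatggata

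The Gdnf stretch held a TATA box 30 to 25 bases before the start and a cAMP response motif 49 to 45 bases before it. The Gfra4 stretch held an androgen response motif 86 to 81 bases before the start, and none of the 4 motifs was found in those of Nrtn and Ret. Among 33469 such stretches of the table, 17.5% held the androgen response motif, 18.2% the cAMP response motif, 30.5% the GC box and 12.9% the TATA box. A match of this length describes the letters, and not a full response element or a bound site. The stretches of Nrtn and Ret had 56.4% and 72.8% G and C, those of Gdnf and Gfra4 49.6% and 55.2%.

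Nrtn, the neurturin ligand, had the largest difference among the 4 ligands, of like size in both numbers. Its probe (chromosome Un, 25029877 to 25029936, rn4) had processed signals of 721 and 447 with testosterone, against 892 and 636 in control. The relative levels were 0.64 and 0.34 with testosterone and 1.09 and 0.68 in control. Both testosterone arrays lay below both control arrays, though testosterone replicate 1 was close to control replicate 2. The mean was 0.49 ± 0.22 with testosterone and 0.88 ± 0.29 in control (SD, n = 2 each). The difference was -0.40, a 0.760-fold level, with an interval from -1.06 to 0.27 (limma, adjusted p = 1.00). It was -0.45 for number 1 and -0.34 for number 2, and stayed below 0 with any 1 array left out, from -0.60 without control replicate 2 to -0.19 without control replicate 1.

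Artn, the ligand that prefers Gfra3, was measured by 2 probes on chromosome 5. The brighter one (138391381 to 138391440, rn4, minus strand) stood at -0.25 and -0.04 with testosterone and -0.09 and 0.06 in control. The other (138391594 to 138391653) stood at -3.07 and -2.97 with testosterone, and at -3.03 and -2.50 in control. At both, the testosterone array was the lower one within each number. The difference was -0.13 at the brighter probe (-0.66 to 0.40, limma, adjusted p = 1.00) and -0.25 at the other (-0.93 to 0.42, adjusted p = 1.00 with each probe tested on its own). At the brighter probe it was -0.03 when testosterone replicate 1 was left out, -0.23 when testosterone replicate 2 was, and -0.06 when control replicate 2 was.

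Pspn, the ligand that prefers Gfra4, gave a weak signal of 54.6 and 48.1 with testosterone and 64.0 and 48.2 in control (chromosome Un, 24764436 to 24764495, rn4). Its relative levels were -3.08 and -2.88 with testosterone and -2.71 and -3.05 in control. The groups overlapped and the numbers disagreed, with -0.37 for number 1 and 0.17 for number 2. The difference was -0.10 (-0.70 to 0.49, limma, adjusted p = 1.00), and 0.067 without control replicate 1 and 0.001 without testosterone replicate 1.

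Gfra1, the co-receptor of Gdnf, stayed at background at both probes on all 4 arrays. The first probe (chromosome 1, 264614326 to 264614385, rn4, minus strand) had processed signals of 2.31 and 5.32 with testosterone and 1.92 and 4.81 in control. The second (264616404 to 264617205, a span of 802 bases where most probes span 60) had 2.50 and 1.65 with testosterone and 5.13 and 1.85 in control. No fold is given between groups that are both below background, and Gfra1 did not enter the test.

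Gfra2, the co-receptor of Nrtn, stood at -2.79 and -2.21 with testosterone and -2.74 and -2.25 in control (chromosome 15, 51370896 to 51370955, rn4). The groups overlapped fully, and the difference was -0.005 (-0.85 to 0.84, limma, adjusted p = 1.00). It was 0.011 after normexp and quantile normalization, and 0.29 and 0.24 without testosterone replicate 1 and without control replicate 2.

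Gfra3, the co-receptor of Artn, showed the largest difference of the family, and it rested on 1 array. Its detected probe (chromosome 18, 27168235 to 27168294, rn4, minus strand) had weak processed signals of 18.0 and 30.0 with testosterone, against 43.1 and 34.1 in control. The relative levels were -4.68 and -3.56 with testosterone and -3.28 and -3.54 in control. Testosterone replicate 1 was low and the other 3 arrays were close together. The scanner software's error of the spot was 16.8% on testosterone replicate 1 and 11.2% to 11.4% on the others. The difference was -0.71 (-1.85 to 0.44, limma, adjusted p = 1.00), made up of -1.40 for number 1 and -0.02 for number 2. It was -0.15 without testosterone replicate 1, -1.27 without testosterone replicate 2 (limma, adjusted p = 0.826, unadjusted p = 0.0115), and -0.23 after normexp and quantile normalization. The probe lies in column 58 of the array. The second probe (27169167 to 27169226) stayed at background throughout, at processed signals of 2.71 and 5.88 with testosterone and 2.91 and 6.03 in control.

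Gfra4, the co-receptor of Pspn, was the one tested member with a positive difference. It stood at -2.35 and -1.85 with testosterone and -2.53 and -1.81 in control (chromosome 3, 118712619 to 118713419, rn4, a span of 801 bases). The groups overlapped, and the difference was 0.07 (-0.86 to 1.00, limma, adjusted p = 1.00), with 0.18 for number 1 and -0.03 for number 2. It was -0.011 after normexp and quantile normalization, -0.18 without testosterone replicate 2 and -0.29 without control replicate 1.

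Ret, the shared signalling receptor, was measured by 3 probes on the minus strand of chromosome 4. On average over the arrays, all 3 differed more between replicate numbers than between treatments. The brightest (154448221 to 154448280, rn4) had processed signals of 2859 and 1187 with testosterone and 2867 and 1618 in control. Its relative levels were 2.63 and 1.75 with testosterone, against 2.78 and 2.02 in control. The arrays numbered 1 were high and those numbered 2 low in both groups, so the groups overlapped. The difference was -0.21, a 0.863-fold level (-1.36 to 0.94, limma, adjusted p = 1.00), with -0.15 for number 1 and -0.28 for number 2. With 1 array left out it turned to 0.23 without testosterone replicate 2 and to 0.16 without control replicate 1.

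The other Ret probes were weaker and placed the 4 arrays in the same order, with control replicate 1 highest and testosterone replicate 2 lowest. The one at 154460013 to 154460072, in column 83 of the array, stood at -3.08 and -4.32 with testosterone and -2.88 and -4.16 in control. The one at 154468435 to 154468494 stood at -3.38 and -4.21 with testosterone and -3.24 and -3.72 in control. At this probe the arrays numbered 2 differed by -0.48 between treatments, as much as the control arrays did between numbers (-0.48). The testosterone array was the lower one in 6 of 6 comparisons of same-numbered arrays over the 3 Ret probes. These probes share the arrays and the gene and are not independent. Their differences were -0.17 and -0.31 (adjusted p = 1.00 for both in limma, each probe tested on its own).

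**Figure D3:**
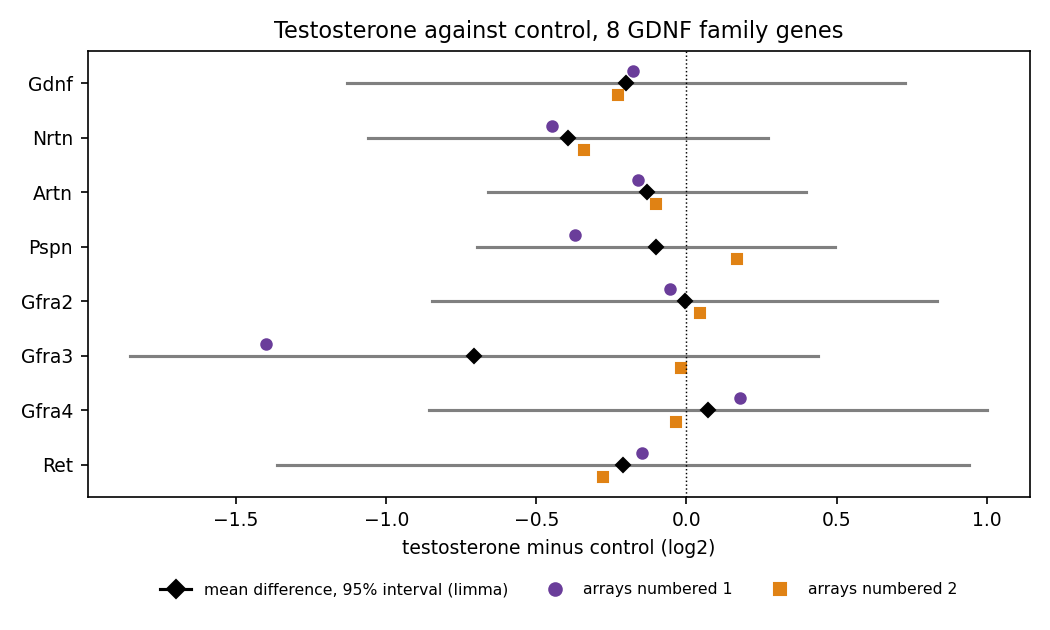
Difference between testosterone and control on the log2 scale for the 8 tested GDNF family genes, as the mean (diamond) with its 95% interval from limma (line) and for arrays numbered 1 (circle) and 2 (square). Every interval includes 0, and both numbers lie below 0 for Gdnf, Nrtn, Artn, Gfra3 and Ret.

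Over the family, 0 of the 8 tested genes passed limma's test at an adjusted p under 0.05, where 0% of the 22023 genes and unnamed transcripts tested were called. At an unadjusted p under 0.05 there were also 0 of 8, against 0.795% of all tested. Differences were negative for 7 genes and positive for 1, against 52.1% negative and 47.9% positive among all tested. The median difference was -0.17 for the family and -0.01 for all genes. Both testosterone arrays lay below both control arrays for 2 of the 8, Nrtn and Gfra3, and above them for 0, where 9.1% and 6.03% of all genes did so. The gap was narrow for both. For Nrtn, testosterone replicate 1 stood at 0.64 and control replicate 2 at 0.68. For Gfra3, testosterone replicate 2 stood at -3.56 and control replicate 2 at -3.54. With the replicate number as a block, 0 of the 8 had an unadjusted p under 0.05 in limma, against 2.81% of all genes.

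Within both replicate numbers, testosterone was lower for 5 of the 8 genes (62.5%) and higher for 0, against 24.7% and 19.3% of all tested. The 5 were Gdnf, Nrtn, Artn, Gfra3 and Ret, and over single probes it was 8 of 11. Gfra3 counts among the 5 with a difference of only -0.02 for number 2. The genes share 4 arrays, so these shares are descriptions and carry no test. Without the replicate block, the 95% intervals reached 0.53 to 1.15 to either side over the 8 genes. Differences of the sizes seen here were thus not detectable in that fit with 2 arrays per group. With the block, intervals were narrower, from -0.61 to 0.21 for Gdnf and from -0.63 to 0.21 for Ret. Every interval of the 8 genes still included 0. An exact permutation test of 2 against 2 arrays cannot go below a 2-sided p of 0.333.

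For most members, as for most genes tested, the arrays numbered 2 differed from those numbered 1 by more than testosterone arrays from controls. This shift was larger than the testosterone difference in both groups for 6 of 8 genes (75%), against 63.8% of all genes tested. A shift is taken between single arrays and the testosterone difference between means of 2, which favours the larger shift. The shift had the same sign in both groups for 6 of 8 as well, against 71.2% of all genes. Gdnf was higher on number 2 by 0.60 with testosterone and 0.65 in control. The shift of Ret was -0.88 with testosterone and -0.75 in control, which is 0.543-fold and 0.594-fold. Gfra2 was higher by 0.59 with testosterone and 0.49 in control, and Gfra4 by 0.51 with testosterone and 0.72 in control. The labels do not say what the numbers stand for.

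**Figure D4:**
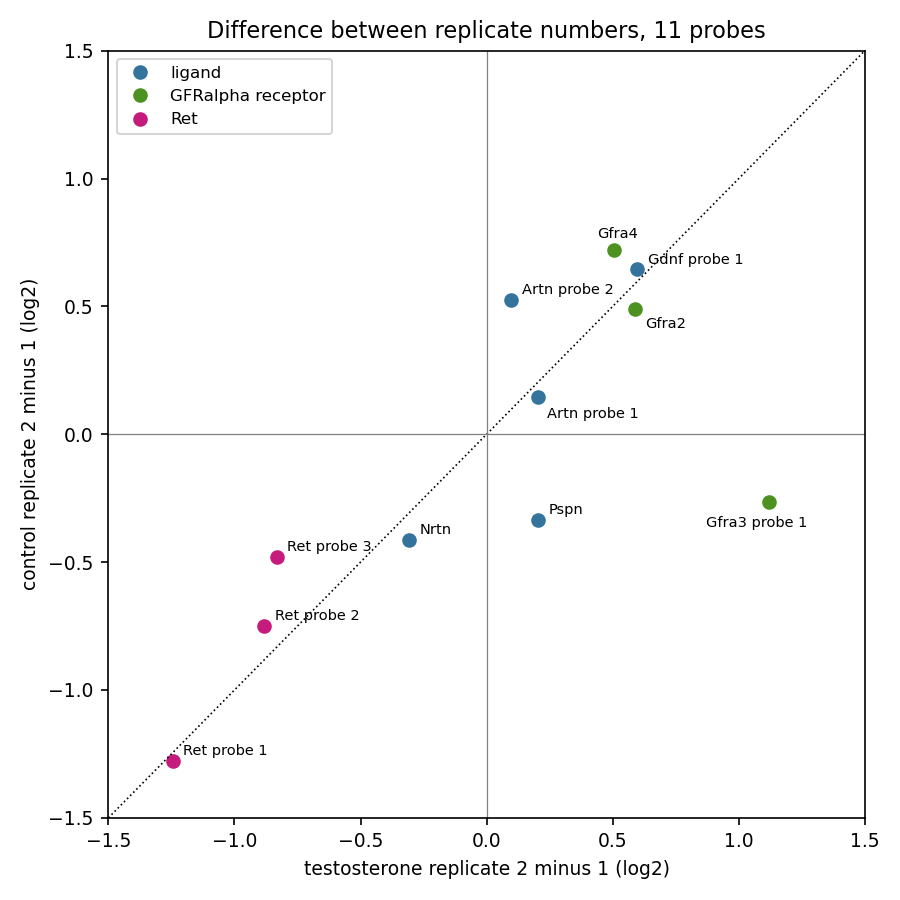
Replicate 2 minus replicate 1 on the log2 scale for the 11 detected GDNF family probes, among testosterone arrays (horizontal axis) and control arrays (vertical axis), with equality as a dotted line. The 3 Ret probes lie at the lower left, with Gdnf, Gfra2 and Gfra4 at the upper right.

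Like most genes tested, many markers of other cells moved with the replicate number. Of all genes tested, 71.2% shifted the same way in both groups. Counts of this kind, here and below, are to be read beside that share. The share of all genes in each direction was not analysed. Of 7 tested macrophage markers, 5 were lower on the arrays numbered 2 in both groups. Their summed level, relative to the 75th percentile on a linear scale, came to 153 and 121 with testosterone and 172 and 126 in control. Such sums, here and below, take the brightest probe of every listed gene that had one, tested or not. They are dominated by the brightest probes and do not weigh the genes of a list evenly. Cd68, a lysosomal protein of macrophages, stood at 6.38 and 5.92 with testosterone and 6.54 and 5.96 in control, while no probe was named Ptprc. Cd163, a scavenger receptor of macrophages, went the other way, at -2.26 and -1.99 with testosterone and -2.29 and -1.75 in control. Csf1r, the receptor of Csf1, stood at -0.81 and -1.16 with testosterone and -0.64 and -1.28 in control. Of 5 tested Leydig cell markers, 4 were lower on number 2 in both groups. The list summed to 94.1 and 121 with testosterone and 101 and 105 in control, mostly from Star and Insl3. Cyp11a1, the enzyme that starts steroid synthesis, stood at -2.36 and -3.33 with testosterone and -2.20 and -3.10 in control. Cyp17a1 and Hsd3b1, later enzymes of that pathway, were likewise lower on number 2 in both groups. Star, the cholesterol carrier, was higher there, at 5.62 and 6.31 with testosterone and 5.53 and 6.04 in control. The part of these cells in the levels of Ret was not tested.

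Of 12 peritubular myoid markers 10 had a probe and 9 were tested, with 4 positive and 5 negative differences, and 7 of the 9 were higher on the arrays numbered 2 in both groups. The list summed to 187 and 238 with testosterone and 216 and 244 in control, mostly from Tpm2 and Myl9. Tagln, a smooth muscle actin-binding protein, stood at -4.63 and -2.84 with testosterone and -4.47 and -2.75 in control. Cnn1, calponin, stayed at background, and no probe was named Acta2 or Myh11. In all, 8 of the list were well above background on all 4 arrays. Among them, Myl9, a myosin light chain of smooth muscle, stood at 5.68 and 5.86 with testosterone and 5.98 and 6.11 in control. Des, the muscle intermediate filament protein desmin, stood at 1.68 and 2.46 with testosterone and 1.72 and 2.15 in control. Tpm2, a tropomyosin, was between 7.00 and 7.41 on the testosterone arrays and between 7.19 and 7.38 on the control arrays.

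Sertoli cells make Gdnf and are named for that reason. Of 14 Sertoli markers 11 were tested (5 positive, 6 negative). The list summed to 186 and 220 with testosterone and 195 and 205 in control. Most of this sum came from Ctsl, a protease, at 7.29 and 7.59 with testosterone and 7.36 and 7.46 in control. Sox9 and the FSH receptor Fshr were well above background on 1 array each. Amh and Clu were well above it on all 4. Of 15 spermatogonial and germ cell markers, a lineage whose stem cells carry Gfra1 and Ret, 12 had a probe and 9 were tested, 4 positive and 5 negative. The 12 with a probe summed to 1.25 and 5.60 with testosterone and 1.28 and 5.54 in control. Ddx4, a germ cell RNA helicase, was well above background on 3 arrays, and stood at -7.59 on control replicate 1, in column 78. Zbtb16, a factor of undifferentiated spermatogonia, was detected on 4, and no probe was named Dazl or Sall4. Of the 9, 5 were higher on the arrays numbered 2 in both groups. The spermatid genes Tnp1 and Prm1, named after their values were seen, had the largest shifts of these 5. Tnp1 stood at -3.42 and 1.59 with testosterone and -2.80 and 1.59 in control, and Prm1 at -2.76 and 0.33 with testosterone and -2.25 and 0.41 in control. Of 11 neural and Schwann cell markers 10 were tested, 5 positive and 5 negative. The list summed to 15.3 and 14.6 with testosterone and 16.4 and 14.6 in control, mostly from Tubb3. S100b stayed at background, and Sox10 and Mbp were detected on all 4 arrays. Over the 6 marker lists limma called 0 genes, as among all genes tested. Only 1 gene, among the 10 tested of the neural list, had an unadjusted p under 0.05, against 0.795% of all genes tested. The part of these cells in the levels of the family was not tested.

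None of the genes that act after Ret, or beside Gdnf, passed the test. The 50 tested genes of 3 such lists had 28 positive and 22 negative differences. Limma called 0 of them at an adjusted p under 0.05, where 0% of all genes were called. At an unadjusted p under 0.05 there were also 0, against 0.795% of all genes. The median was 0.02, against -0.01 for all genes.

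Of 26 tested RET signalling genes 11 had positive and 15 negative differences (median -0.03). Ncam1, a cell adhesion molecule that can also receive Gdnf, stood at -4.09 and -4.60 with testosterone and -4.39 and -5.07 in control, a difference of 0.39 (-0.52 to 1.30). Sorl1, a sorting receptor that binds Gdnf and Gfra1, differed by -0.44 (-1.42 to 0.55), with 0.07 for number 1 and -0.94 for number 2. Sdc3 was not tested. Sos1, an exchange factor for Ras, stood at 3.12 and 3.01 with testosterone and -3.95 and 3.26 in control. Control replicate 1 alone was low, and the probe lies in column 77. The difference was 3.41 (-3.14 to 9.95), against -0.25 for number 2. Shc3 and Gab1, adaptors that bind activated receptors, were the RET signalling genes whose groups did not overlap. Their differences were 0.88 (-0.02 to 1.78, column 81) and -0.29 (-0.81 to 0.23). Shc3 was not well above background on all 4 arrays, at -4.50 and -4.21 with testosterone and -5.64 and -4.84 in control. It entered the test through 1 group only, so its lack of overlap is not read as a result. Over the 50 tested genes of the 3 lists, groups without overlap were found for 3 higher with testosterone and 1 lower. The higher ones besides Shc3 were Id4 and Egr2, described below. Among all genes tested, 6.03% were apart in the higher direction and 9.1% in the lower.

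Of 13 tested genes that respond to Gdnf in rodent spermatogonia, 9 had positive and 4 negative differences (median 0.05). Etv5, a transcription factor induced by Gdnf in these cells, stood at -0.93 and -2.04 with testosterone and -0.87 and -1.66 in control. It was lower on the arrays numbered 2 in both groups, as were 5 of the 13, whereas 3 were higher and 5 split. Etv4, a related factor, was higher there, at -3.39 and -2.45 with testosterone and -3.35 and -2.50 in control. The difference of Etv5 was -0.21 (-1.54 to 1.11). Bcl6b, another such factor, differed by 0.08 (-0.43 to 0.60). Id4, an inhibitor of differentiation found in spermatogonial stem cells, stood at 0.98 and 1.12 with testosterone and 0.78 and 0.66 in control, a difference of 0.33 (-0.18 to 0.84, column 72). Egr2, an immediate early transcription factor, differed by 0.39 (-0.36 to 1.14, column 63), with 0.73 for number 1 and 0.06 for number 2. It stood at 2.53 and 1.89 with testosterone and 1.80 and 1.83 in control, so testosterone replicate 1 alone was high. Lhx1 was well above background on 1 array and was not tested.

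Of 11 tested growth factors of the spermatogonial niche other than the family, 8 had positive and 3 negative differences (median 0.12), and 10 of them were higher on the arrays numbered 2 in both groups. Csf1, the macrophage colony factor, stood at 4.93 and 5.30 with testosterone and 5.11 and 5.40 in control, a difference of -0.14 (-0.77 to 0.50). Kitlg, the ligand of the Kit receptor, differed by -0.07 (-0.65 to 0.50). Fgf2, a fibroblast growth factor, differed by 0.29 (-0.61 to 1.18), with -0.04 for number 1 and 0.61 for number 2. Inhba, the activin beta A subunit, differed by 0.22 (-1.76 to 2.20), and Vegfa, the vascular growth factor, by 0.26 (-1.23 to 1.75). The chemokine Cxcl12 was saturated on 3 arrays, so its difference of 0.05 was not measured exactly.

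**Figure D5:**
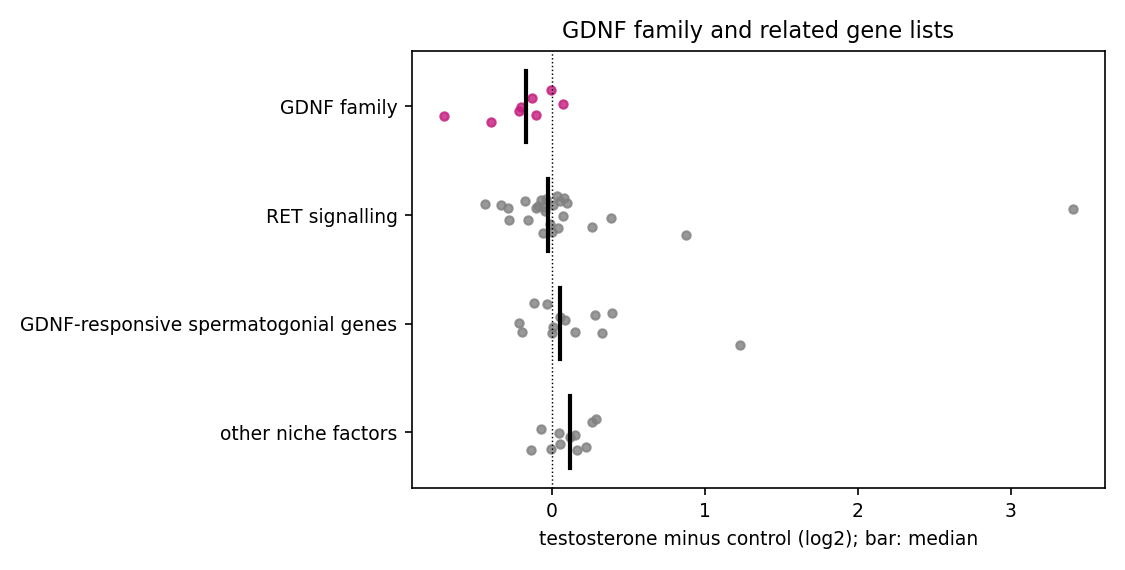
Difference between testosterone and control on the log2 scale for each tested gene of the GDNF family (8 genes), RET signalling (26), GDNF-responsive spermatogonial genes (13) and other niche factors (11), with the median of each list as a bar. The family median is -0.17, and the point at 3.41 is Sos1, which read low on control replicate 1 alone.

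The 3 genes whose values over the 4 arrays, each centred on its own mean, lay nearest to those of the bright Gdnf probe were Tmtc2, Ell2 and Ccl22, out of 10201 candidates. Their root mean square differences from Gdnf were 0.0196, 0.0298 and 0.0343 on the log2 scale. Like Gdnf, each was lowest on testosterone replicate 1 and highest on control replicate 2, and their differences between testosterone and control were -0.17, -0.16 and -0.13. This likeness over 4 arrays is a description and carries no test.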

How the data were processed

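Per the labels' protocols, total RNA was reverse transcribed from oligo-dT, transcribed into Cy3 cRNA and run on Agilent 4x44k rat arrays. The deposited scanner files hold processed, mean and background signals as intensity on a linear scale, written by Feature Extraction 11.5.1.1 per the file headers. The submitters' processing notes name version 10.5. The deposited series table holds log2 values that equalled the log2 processed signal minus 8.79 and 8.38 for testosterone and 8.63 and 8.55 for control, with column medians of -3.61, -3.34, -3.62 and -3.45, so its scale, centring and direction were known.

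Here log2 processed signals were set relative to each array's 75th percentile. Outlier spots were left out and spots of a probe averaged. Probes entered the test if both arrays of either group had them well above background (25880 probes), and the brightest probe stood for a gene (22023). Names came from the reference table of GRCr8 by accession (10835 probes), symbol (5201) or older symbol on the same chromosome (3444), and 21532 kept the file's name. Testosterone and control arrays were compared by limma 3.58.1 (R 4.3.3; lmFit, then eBayes; 2-sided), with Benjamini-Hochberg adjustment over all genes. The fit was tested on simulated data.

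The members and gene lists were chosen with earlier results of these data known. Named were all family probes, of each pathway list the 3 largest differences (genes detected on all arrays, none saturated) plus fixed genes, the first 4 genes of each marker list (not all are reported here), and the 3 genes most like Gdnf over the arrays. Shc3, Gab1, Etv4, Nanos2, Myl9, Des, Tpm2, Tnp1 and Prm1 were named after their values were seen. Alternatives changed background correction, scaling, filter, probe rule, outlier spots, array columns, the replicate block and the arrays kept; normexp was fitted on non-control spots.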

Additional observations from a re-analysis of the deposited data

How the results depend on the processing

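With 4 arrays kept, limma called 0 genes, and so 0 family, RET pathway or niche genes, under each of the 11 alternatives, with 38 to 629 genes at an unadjusted p under 0.05. Gfra2 turned to 0.011 and Gfra4 to -0.011 with normexp and quantile normalization, and the other 6 family differences kept their sign. Titles share replicate numbers, and same-numbered arrays deviated together from their group means (r = 0.586 over 20795 genes), but nothing says that the numbers mark a shared culture. With the replicate block 0 genes were called and 618 (2.81%) had an unadjusted p under 0.05, against 175. Nrtn then differed by -0.40 (-0.81 to 0.02, unadjusted p = 0.0570, adjusted p = 1.00 in limma). Leaving out 1 array gave 0 to 34 genes called, 0 family genes, and 0 to 1 RET pathway and niche genes; a lone array's spread was taken from the other group. The 34 came from leaving out control replicate 2, and 33 of them lay in columns 57 to 85, and the 1 was Sos1. Family differences turned without testosterone replicate 1 for Gdnf (0.10), Pspn (0.001) and Gfra2 (0.29), and without testosterone replicate 2 for Gfra4 (-0.18) and Ret (0.23). They turned without control replicate 1 for Pspn (0.067), Gfra4 (-0.29) and Ret (0.16), and without control replicate 2 for Gdnf (0.12) and Gfra2 (0.24). The ranges over these fits were -0.53 to 0.12 for Gdnf, -0.60 to -0.19 for Nrtn, -0.23 to -0.03 for Artn, -0.27 to 0.067 for Pspn, -0.30 to 0.29 for Gfra2, -1.27 to -0.15 for Gfra3, -0.29 to 0.43 for Gfra4 and -0.65 to 0.23 for Ret. Such fits leave the replicate numbers unbalanced. Without columns 57 to 85 Gfra2 and Gfra3 had no tested probe. The number of arrays, and for Gfra1 signal at background, limit what these data can show.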
